A study of Homo sapiens with 18 samples.

Results

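The levels of 10 secreted inflammatory genes were followed in the large-cell lung cancer line NCI-H460, as parental cells and as 2 populations resistant to decitabine with all-trans retinoic acid (ATRA). They are the CXC chemokines CXCL1, CXCL2, CXCL3, CXCL5 and CXCL8, the cytokines IL6, IL1A and IL1B, and the CC chemokines CCL2 and CCL20, that is 10 of 58051 genes in the deposited tables. They were taken as a named list, chosen with earlier results of these data known, and matched by Ensembl identifier. The shares of all genes given beside their counts are therefore a description and no test of the list. With the solvent alone, 8 of the 10 were higher in resistant 1 and 7 in resistant 2 than in parental cells, with CXCL8, IL1B and CCL2 among the largest changes, where 29.3% and 32.1% of all genes tested were higher. Treatment lowered 6 and raised 2 of the 9 that could be tested in parental cells, where it lowered 31.8% and raised 33.4% of all genes. In treated cells 8 of 9 were higher in each resistant population than in parental cells, where 34.3% of all genes were in resistant 1 and 37.3% in resistant 2, and CCL20 was not. The treated values rest on restored decimal points, described with the treated cells.

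The data are poly(A) RNA sequencing of 18 libraries in 6 groups of 3 labelled biological replicates. The groups cross parental, resistant 1 and resistant 2 cells, all labelled WT, with 2 treatments. Cells received the solvent DMSO at 0.7% (v/v), or ATRA at 2 µM together with decitabine at a labelled 50 µM, 24 h after seeding, and RNA was taken at 72 h, that is after an exposure of 48 h. Decitabine inhibits DNA methyltransferases once cells have incorporated it, and ATRA activates retinoic acid receptors. How the resistant populations were derived, and whether either is 1 clone, is not given in the sources used here. Depth, as total reads in units of 1e6, was 116.9 to 140.9 per DMSO library and 116.5 to 180.7 per treated library, the latter over genes whose values could be restored.

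The 10 genes encode signals that recruit or activate leukocytes. CXCL1, CXCL2, CXCL3, CXCL5 and CXCL8 bind the receptor CXCR2 and attract neutrophils. CCL2 attracts monocytes through CCR2, and CCL20 attracts lymphocytes and dendritic cells through CCR6. IL-1 alpha and IL-1 beta act through the receptor IL1R1, and IL-6 acts through IL6R and IL6ST. Most of these genes are known targets of the transcription factor NF-kB, often together with AP-1 or C/EBP factors, and their mRNAs are known to be short-lived through AU-rich elements in the 3′ untranslated region. Many epithelial tumours make some of them without any immune cell present.

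Promoters are shown because 7 of the 9 genes with a RefSeq promoter entry share a motif close to the start site. The lines give bases -150 to -1 before the RefSeq start (build GRCh38.p14), 5′ to 3′ on the strand of the gene, with matches to the NF-kB motif GGNNTTTCC and the AP-1 motif TGANTCA, on either strand, in capitals.
CXCL1 (chr4:73869243-73869392, plus strand): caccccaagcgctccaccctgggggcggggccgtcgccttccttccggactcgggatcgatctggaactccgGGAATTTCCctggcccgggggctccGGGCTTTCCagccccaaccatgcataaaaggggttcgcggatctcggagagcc
CXCL2 (chr4:74099196-74099345, minus strand): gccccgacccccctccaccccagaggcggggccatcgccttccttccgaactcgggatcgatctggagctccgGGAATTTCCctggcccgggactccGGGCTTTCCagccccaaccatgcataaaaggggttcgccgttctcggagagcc
CXCL3 (chr4:74038690-74038839, minus strand): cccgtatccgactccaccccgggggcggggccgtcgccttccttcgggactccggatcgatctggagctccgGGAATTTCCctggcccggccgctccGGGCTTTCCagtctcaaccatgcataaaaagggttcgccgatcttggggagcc
CXCL5 (chr4:73998678-73998827, minus strand): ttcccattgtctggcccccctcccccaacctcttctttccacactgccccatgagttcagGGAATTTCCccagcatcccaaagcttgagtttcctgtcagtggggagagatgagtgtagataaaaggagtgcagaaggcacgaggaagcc
CXCL8 (chr4:73740419-73740568, plus strand): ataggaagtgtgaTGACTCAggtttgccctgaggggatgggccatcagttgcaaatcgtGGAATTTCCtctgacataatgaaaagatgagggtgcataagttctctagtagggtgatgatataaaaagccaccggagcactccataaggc
IL6 (chr7:22727050-22727199, plus strand): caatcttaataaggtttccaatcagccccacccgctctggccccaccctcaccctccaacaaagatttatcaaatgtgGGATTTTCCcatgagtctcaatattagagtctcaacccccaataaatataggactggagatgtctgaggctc
IL1B (chr2:112836780-112836929, minus strand): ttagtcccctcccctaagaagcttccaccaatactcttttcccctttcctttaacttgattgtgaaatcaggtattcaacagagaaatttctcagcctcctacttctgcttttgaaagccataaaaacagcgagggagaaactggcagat
CCL20 (chr2:227813692-227813841, plus strand): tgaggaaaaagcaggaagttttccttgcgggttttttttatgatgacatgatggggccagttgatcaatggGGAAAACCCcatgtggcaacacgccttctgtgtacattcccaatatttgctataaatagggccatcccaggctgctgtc

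CXCL1, CXCL2 and CXCL3 each carried the pair of motifs GGAATTTCC and GGGCTTTCC, the second at base -53 in all 3, and none of the other promoters had both. CXCL5 and CXCL8 had GGAATTTCC alone, at bases -90 and -91, IL6 had GGATTTTCC at -72, and CCL20 had its match on the opposite strand. Over the 300-base windows the NF-kB motif was found in 6.26% of 35116 RefSeq promoters. The AP-1 motif was found in CXCL8 and IL1A (2 of 9, against 7.71% of all promoters), with no overlap with an NF-kB match. IL1A has a pair of RefSeq start sites, both with AP-1 matches and neither with an NF-kB match, and IL1B had neither motif. The promoters of CXCL1, CXCL2 and CXCL3 held 22, 22 and 24 CpG dinucleotides, the sites of DNA methylation, in 300 bases, against a median of 14 over all promoters, and the other genes held 2 to 9. A match of letters is a description of the window, and no binding or methylation was measured here.

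All 10 genes had more ATTTA pentamers per kb of 3′ untranslated region than the median of 18813 genes (1.43 per kb), from 2.66 per kb in CCL2 to 14 in IL6 (annotation GENCODE 29). The nonamer TTATTTATT, a core of AU-rich elements, was found in 5 of the 10 and in 7.56% of all genes. A stretch of 25 bases is shown for 4 of the genes to let the repeats be seen, with ATTTA in capitals.
CXCL1: gagaagtcttctATTTATTTATTTA
CXCL8: tATTTAttATTTAtgtATTTATTTA
IL6: attatttttaATTTAttaatATTTA
IL1B: aaccgcttccctATTTATTTATTTA

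In parental cells with DMSO, CXCL8 had the highest level per length, with a mean of 38129 normalized counts per kb of exon. CXCL5 and CXCL1 followed with 9007 and 8108 per kb, with overlapping library ranges, then IL6 with 3166 and CXCL2 with 2186. IL1A (698.3), CXCL3 (222.7), CCL20 (120.8), IL1B (41.92) and CCL2 (1.717 per kb) completed the order. In resistant 1 the first 4 places were held in the same order, with CXCL8 at 206452 normalized counts per kb. In resistant 2, IL1A followed IL6 with 4819 per kb, above CXCL2, and IL1B had 906.1 per kb, above CCL20 and CXCL3. CXCL8 thus gave the highest level in all 3 populations, and CCL2 the lowest.

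**Figure D1:**
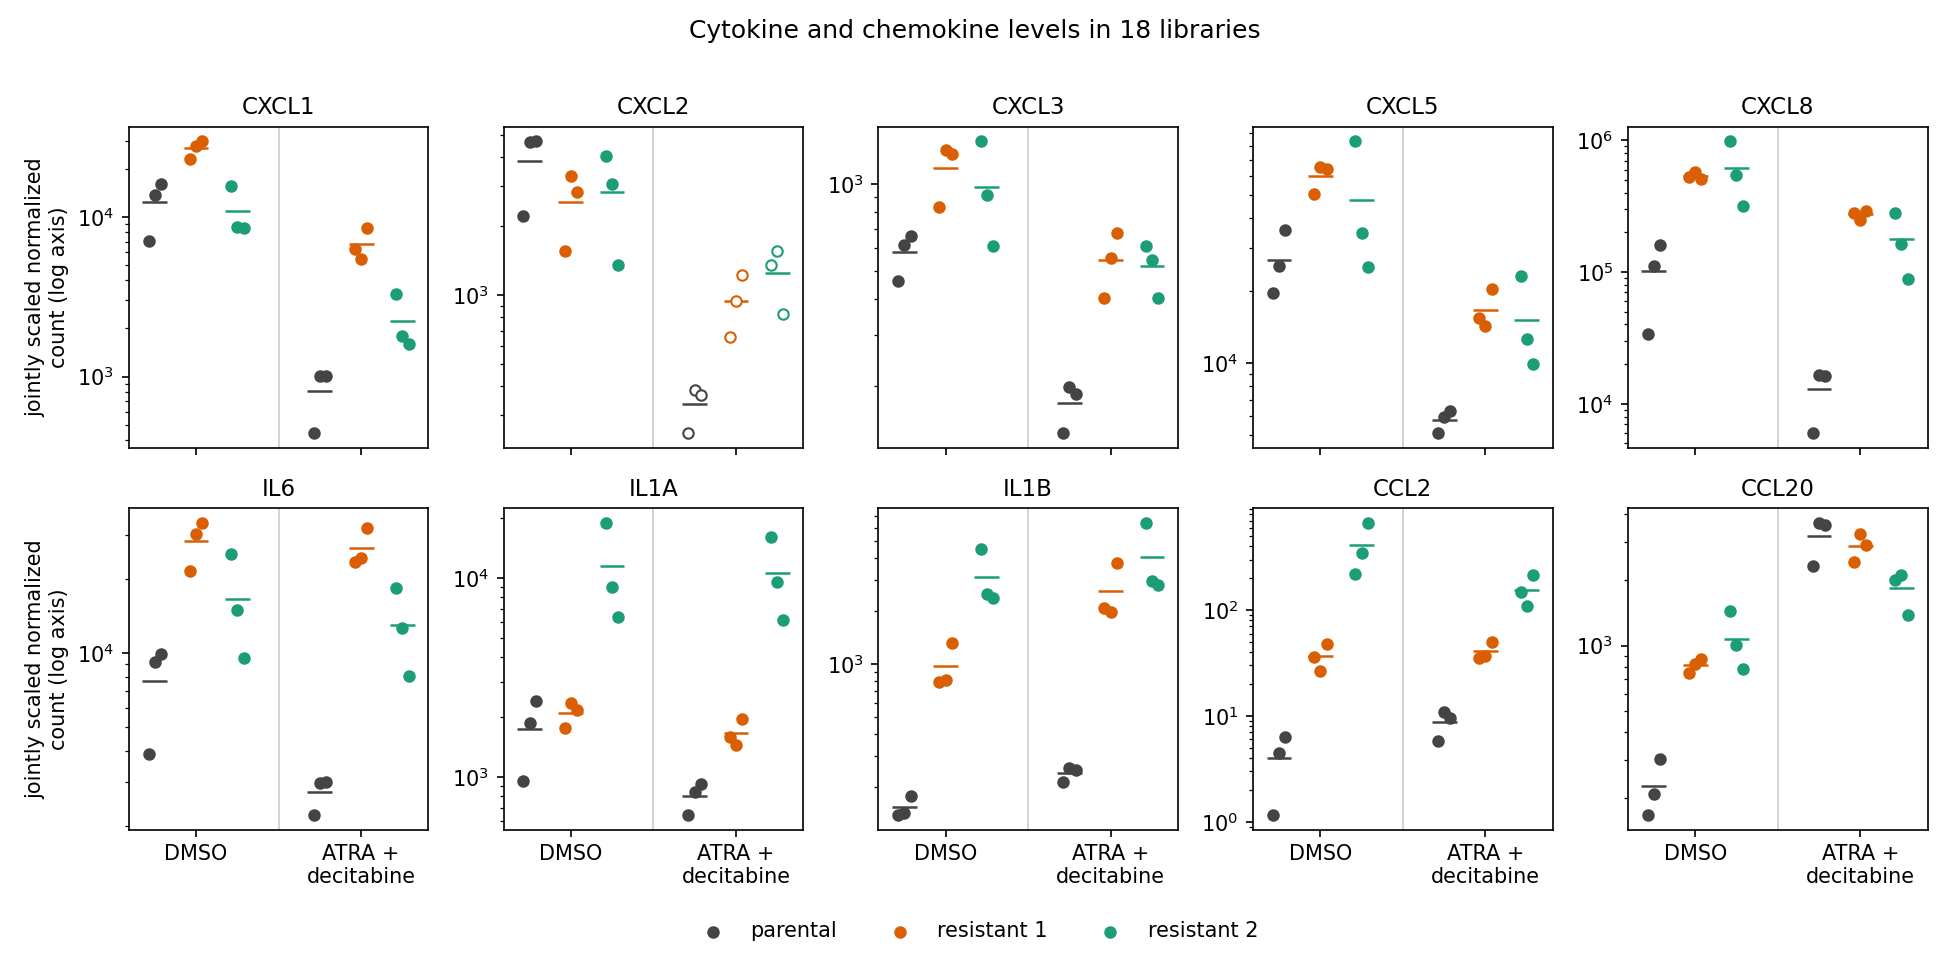
Normalized counts of the 10 genes in each of the 18 libraries, scaled jointly over both treatments (log axes, one panel per gene). Points are libraries, 3 per group, bars are group means and colours are populations, and the treated values of CXCL2 are open because their decimal point was restored with a posterior of 98.02%, under the 99% required. For CXCL8 the treated parental libraries, 5950 to 16535, lie below all other libraries.

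The first question was which of these genes differ between resistant and parental cells when no drug is given. In resistant 1, 8 of 10 rose and none fell, where 29.3% of 21643 genes rose and 26.6% fell. In resistant 2, 7 rose and none fell, where 32.1% rose and 29.8% fell. The median log2 fold change over the 10 was 1.58 in resistant 1 and 1.75 in resistant 2, and over all genes 0.01 and 0.02. Called genes passed an adjusted p of 0.05 in limma's moderated test with Benjamini-Hochberg adjustment over all genes, on log2(normalized count + 1), the scale of all fold changes below. Both comparisons used the same 3 parental libraries, and a gene list chosen with earlier results of these data known. In bulk RNA, fewer cells that express a gene and less RNA per cell cannot be told apart.

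CXCL8, the neutrophil chemokine also called IL-8, had 28732, 94669 and 136718 normalized counts in the 3 parental libraries with DMSO. It had 463958, 503394 and 441063 in resistant 1, and 879767, 492778 and 277580 in resistant 2. All 6 resistant libraries lay above all parental ones. The rise was 6.52-fold in resistant 1 (log2 2.70 ± 0.512 SE, adjusted p = 9.39e-04, limma) and 6.87-fold in resistant 2 (log2 2.78 ± 0.512, adjusted p = 6.37e-04). Without parental library 1, the lowest of the 9, the values were log2 2.04 and 2.12 (adjusted p = 0.00125 and 7.90e-04).

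IL1B, the precursor of IL-1 beta, had 117.2, 120.7 and 151.5 normalized counts in parental cells, 695.4, 715.9 and 1158 in resistant 1, and 4050, 2259 and 2108 in resistant 2. The 3 groups did not overlap, and resistant 2 stood above resistant 1. IL1B rose 6.41-fold in resistant 1 (log2 2.68 ± 0.265, adjusted p = 7.53e-06, limma) and 20.6-fold in resistant 2 (log2 4.37 ± 0.265, adjusted p = 1.14e-07).

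IL1A, which encodes IL-1 alpha and neighbours IL1B on chromosome 2, behaved otherwise. It had 807.4, 1587 and 2056 normalized counts in parental cells and 1541, 2085 and 1900 in resistant 1, which overlapped (log2 0.40 ± 0.392, adjusted p = 0.407, limma). In resistant 2 it had 16973, 8106 and 5628, all above the other 2 groups. The rise in resistant 2 was 6.65-fold (log2 2.73 ± 0.392, adjusted p = 9.96e-05).

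CCL2, also called MCP-1, was nearly silent in parental cells, with 1, 4 and 5 reads per library. Resistant 1 had 36, 26 and 43 reads and resistant 2 had 193, 291 and 539 reads. Over the summed reads the ratio to parental was 9.53 in resistant 1 (exact 95% Poisson interval 4.98 to 20.5) and 108 in resistant 2 (58.4 to 225), intervals that cover counting error only. On the tested scale CCL2 rose by log2 3.03 ± 0.482 (adjusted p = 2.75e-04, limma) and 6.39 ± 0.482 (adjusted p = 6.26e-07). With a pseudocount of 10 in place of 1 these values were 1.64 and 4.68 (adjusted p = 0.00127 and 2.41e-07), so the size on this scale depends on the pseudocount.

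CCL20 had 141.8, 177.2 and 258.7 normalized counts in parental cells, 655.4, 724.1 and 760.1 in resistant 1, and 1291, 900.8 and 686.2 in resistant 2. The resistant libraries all lay above the parental ones. CCL20 rose 3.8-fold in resistant 1 (adjusted p = 6.42e-05, limma) and 4.95-fold in resistant 2 (adjusted p = 1.17e-05).

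IL6 had 3307, 7848 and 8496 normalized counts in parental cells, 18760, 26694 and 29410 in resistant 1, and 22608, 13443 and 8450 in resistant 2. Resistant 1 was clear of parental cells, and resistant 2 overlapped them by 1 library. IL6 rose 4.06-fold in resistant 1 (adjusted p = 0.00106, limma) and 2.27-fold in resistant 2 (adjusted p = 0.0209). Without parental library 1 or resistant 2 library 1, the rise in resistant 2 no longer passed (adjusted p = 0.0842 and 0.0862). IL6 overlaps the gene STEAP1B and the antisense gene IL6-AS1 on the opposite strand, and the strand setting of the counting is not given in the sources used here, so reads of these genes may be mixed.

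Among the GRO chemokines, CXCL1 had 6037, 11694 and 13794 normalized counts in parental cells and 20058, 24666 and 25955 in resistant 1. It had 13965, 7772 and 7519 in resistant 2, which overlapped the parental libraries. CXCL1 rose 2.36-fold in resistant 1 (log2 1.24 ± 0.299, adjusted p = 0.00446, limma) and not in resistant 2 (log2 -0.08 ± 0.299, adjusted p = 0.824). CXCL3 rose 2-fold in resistant 1 (adjusted p = 0.0122) and 1.68-fold in resistant 2 (adjusted p = 0.0414). Its call in resistant 1 was lost without parental library 1 (adjusted p = 0.0515), and that in resistant 2 without parental library 1 or 2 or resistant 2 library 1 or 2 (adjusted p = 0.0735 to 0.163). CXCL2 passed in neither population, with means of 3280 ± 1219 (SD, n = 3) for parental cells, against 2241 ± 794.8 for resistant 1 and 2516 ± 1229 for resistant 2. CXCL1, CXCL2 and CXCL3 are close paralogs, and reads that the authors' counting could not place uniquely may be split or lost among them.

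CXCL5, which acts through CXCR2, had 16567, 21485 and 30526 normalized counts in parental cells, 44070, 57269 and 55653 in resistant 1, and 74752, 31163 and 22055 in resistant 2. CXCL5 rose 2.35-fold in resistant 1 (adjusted p = 0.0145, limma) and did not pass in resistant 2 (log2 0.75 ± 0.368, adjusted p = 0.1), whose libraries spread 3.39-fold. Without parental library 1 the call in resistant 1 was lost (adjusted p = 0.0606), and without resistant 2 library 3 the difference in resistant 2 passed (adjusted p = 0.0113). It also passed with edgeR (log2 0.91, adjusted p = 0.0492).

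Between the resistant populations with DMSO, 1 of the 10 was higher and 3 were lower in resistant 1, where 27.4% and 26.0% of all genes tested were. CXCL1 was 2.51-fold higher in resistant 1 (adjusted p = 0.0032, limma). IL1A, IL1B and CCL2 were 5.02-fold, 3.22-fold and 10.2-fold higher in resistant 2 (adjusted p = 4.55e-04, 2.79e-04 and 1.44e-04). CXCL8 had a log2 difference of -0.07 ± 0.512 between them, an error too wide to show that the levels are alike.

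The libraries of a group were not interchangeable for these genes. Parental library 1 was the lowest of its group for 10 of 10 genes with DMSO, by a median of 0.72 on the log2 scale below the group mean (median deviation -0.72), and for 10 of 10 with ATRA and decitabine (-0.36). Resistant 2 library 1 was the highest for 9 of 10 with DMSO (0.64) and for 7 of 10 with treatment (0.60), and library 3 was the lowest for 9 of 10 in both. CCL2 went against the others in resistant 2, where library 1 was its lowest with DMSO and library 3 its highest. Without parental library 1, 6 of 10 genes passed in resistant 1 and 5 in resistant 2. Without resistant 2 library 1, 5 passed in resistant 2. IL1B, CXCL8, CCL2 and CCL20 passed in both populations whichever library was left out.

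**Figure D2:**
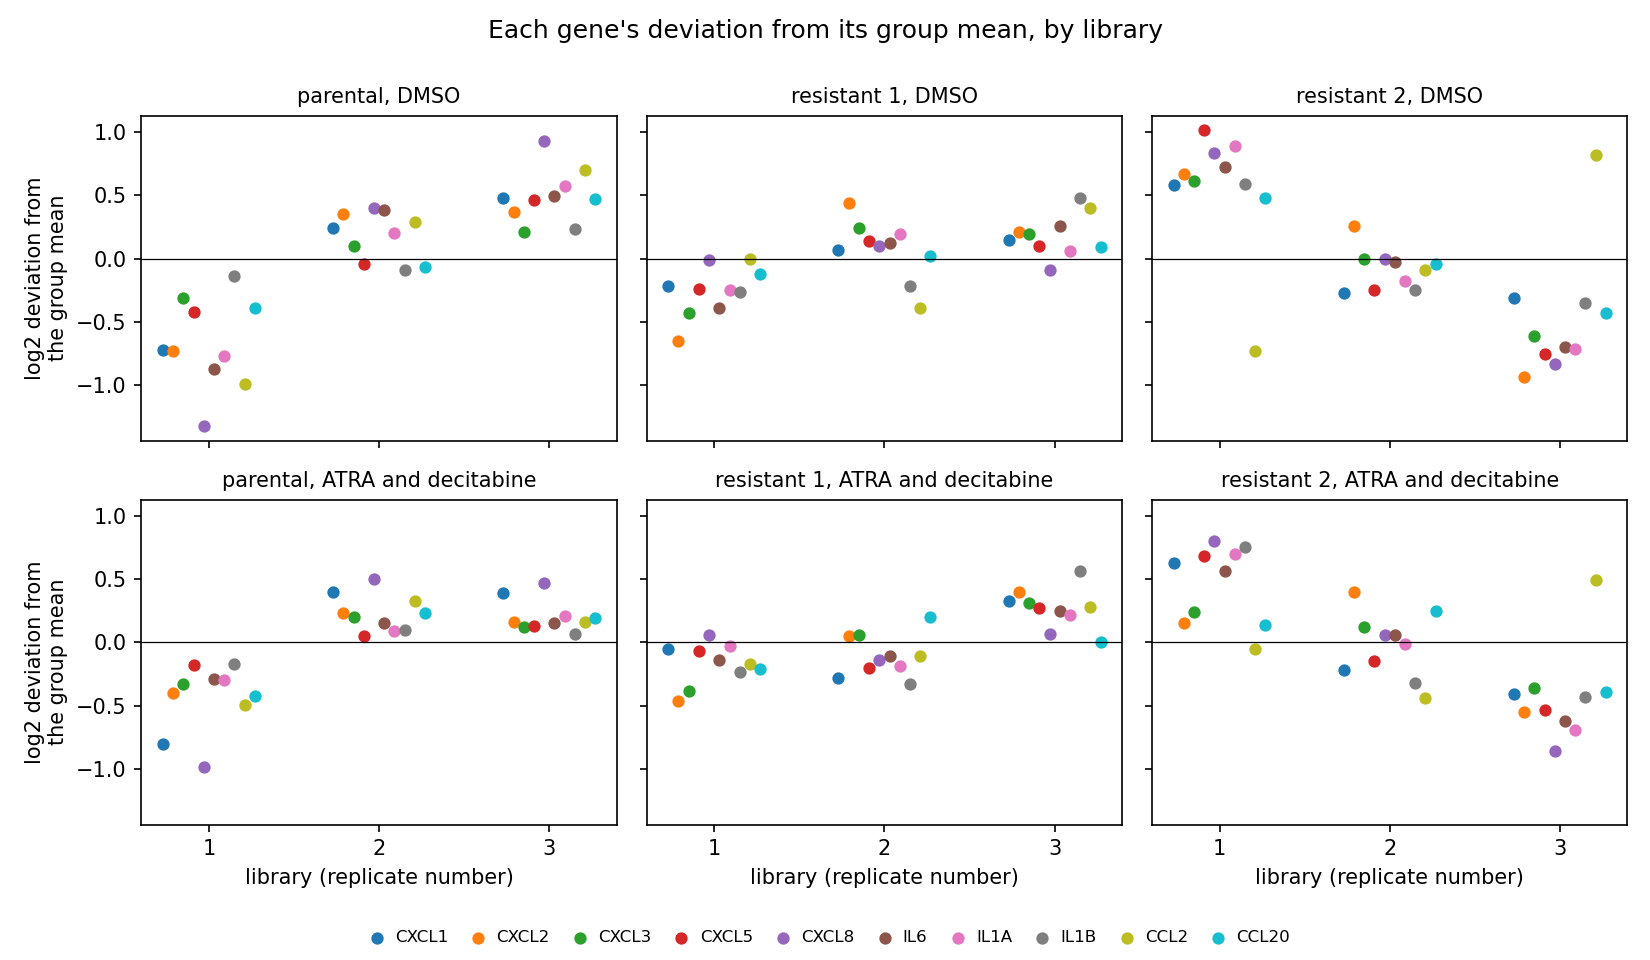
Deviation of each gene from its group mean, on the log2(normalized count + 1) scale, in each library (x axis, replicate number) of the 6 groups. Points are single genes, and all 10 lie below 0 in parental library 1 under both treatments, while most lie above 0 in resistant 2 library 1.

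In treated cells the values of CXCL2 were restored with a posterior of 98.02%, under the 99% required, so 9 of the 10 genes were tested. Of these 9, CXCL3 and CCL20 alone reached 99% under the restoration as first made, from the DMSO level of each gene. CXCL1 (93.43%), CXCL5 (97.52%), CXCL8 (70.17%), IL6 (95.08%), IL1A (88.77%), IL1B (88.70%) and CCL2 (98.57%) reached it through a model of library levels added after these posteriors had been seen. The treated and response calls of these 7 therefore depend on that model, although the restored values of all 10 genes were the same with and without it. In resistant 1 against parental cells, 8 of 9 were higher and none lower, where 34.3% of 21090 genes were higher and 32.1% lower. In resistant 2, 8 were higher and 1 lower, where 37.3% and 34.1% were. The median log2 difference over the 9 was 2.2 in resistant 1 and 2.29 in resistant 2, and over all genes 0.02 and 0.05.

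CXCL8 had 6269, 17476 and 17106 normalized counts in the treated parental libraries, 315984, 274707 and 317531 in resistant 1, and 314451, 189293 and 99699 in resistant 2. The treated resistant libraries lay far above the parental ones, 24.5-fold in resistant 1 (log2 4.61 ± 0.405, adjusted p = 1.12e-06, limma) and 14.7-fold in resistant 2 (log2 3.88 ± 0.405, adjusted p = 3.37e-06). IL6 had 2328, 3162 and 3158 in parental cells, 26367, 27014 and 34729 in resistant 1, and 20686, 14579 and 9087 in resistant 2. IL6 was 10.2-fold (adjusted p = 2.00e-07) and 4.9-fold higher (adjusted p = 3.23e-06), with no overlap between groups.

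CXCL1 had 463.5, 1066 and 1060 normalized counts in treated parental cells, 7097, 6071 and 9281 in resistant 1, and 3711, 2058 and 1803 in resistant 2. It was 9.13-fold higher in resistant 1 (adjusted p = 3.78e-06, limma) and 2.97-fold higher in resistant 2 (adjusted p = 8.91e-04), where it had not differed with DMSO. CXCL3 was 3.22-fold and 3.18-fold higher, and CXCL5 2.99-fold and 2.64-fold. Of the IL-1 pair, IL1B was 10.9-fold and 16.9-fold higher (adjusted p = 7.97e-07 and 1.26e-07), and IL1A was 2.18-fold higher in resistant 1 (adjusted p = 0.00284) and 13.3-fold in resistant 2 (adjusted p = 1.42e-07). CCL2 was 4.59-fold and 17.3-fold higher (log2 2.20 and 4.11, or 1.52 and 3.24 with a pseudocount of 10), at means of 9.225, 45.03 and 176.6 normalized counts in parental, resistant 1 and resistant 2.

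CCL20 was the exception. It had 2452, 3861 and 3763 normalized counts in treated parental cells, 2716, 3612 and 3146 in resistant 1, and 2249, 2436 and 1554 in resistant 2. Its groups overlapped between resistant 1 and parental cells (log2 -0.07 ± 0.197, adjusted p = 0.774, limma), and it was 1.61-fold lower in resistant 2 (log2 -0.69 ± 0.197, adjusted p = 0.00774).

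The restored values of CXCL2 were 263.0, 408.8 and 389.3 in treated parental cells, 735.3, 1048 and 1334 in resistant 1, and 1518, 1798 and 928.5 in resistant 2. All 6 resistant values lay above the parental ones. With the required posterior lowered to 95%, a choice made after seeing the data, CXCL2 was higher by log2 1.54 ± 0.269 in resistant 1 (adjusted p = 3.33e-04, limma) and 1.97 ± 0.269 in resistant 2 (adjusted p = 3.73e-05).

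Between the treated resistant populations, 3 of 9 genes were higher and 2 lower in resistant 1, where 28.9% and 28.6% of all genes were. CXCL1, IL6 and CCL20 were 3.07-fold, 2.08-fold and 1.54-fold higher in resistant 1 (adjusted p = 0.00105, 0.00234 and 0.0178, limma). The call of CCL20 was lost without resistant 1 library 2 or resistant 2 library 3 (adjusted p = 0.074 and 0.0652). IL1A and CCL2 were 6.09-fold and 3.76-fold higher in resistant 2 (adjusted p = 5.54e-06 and 1.34e-04).

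**Figure D3:**
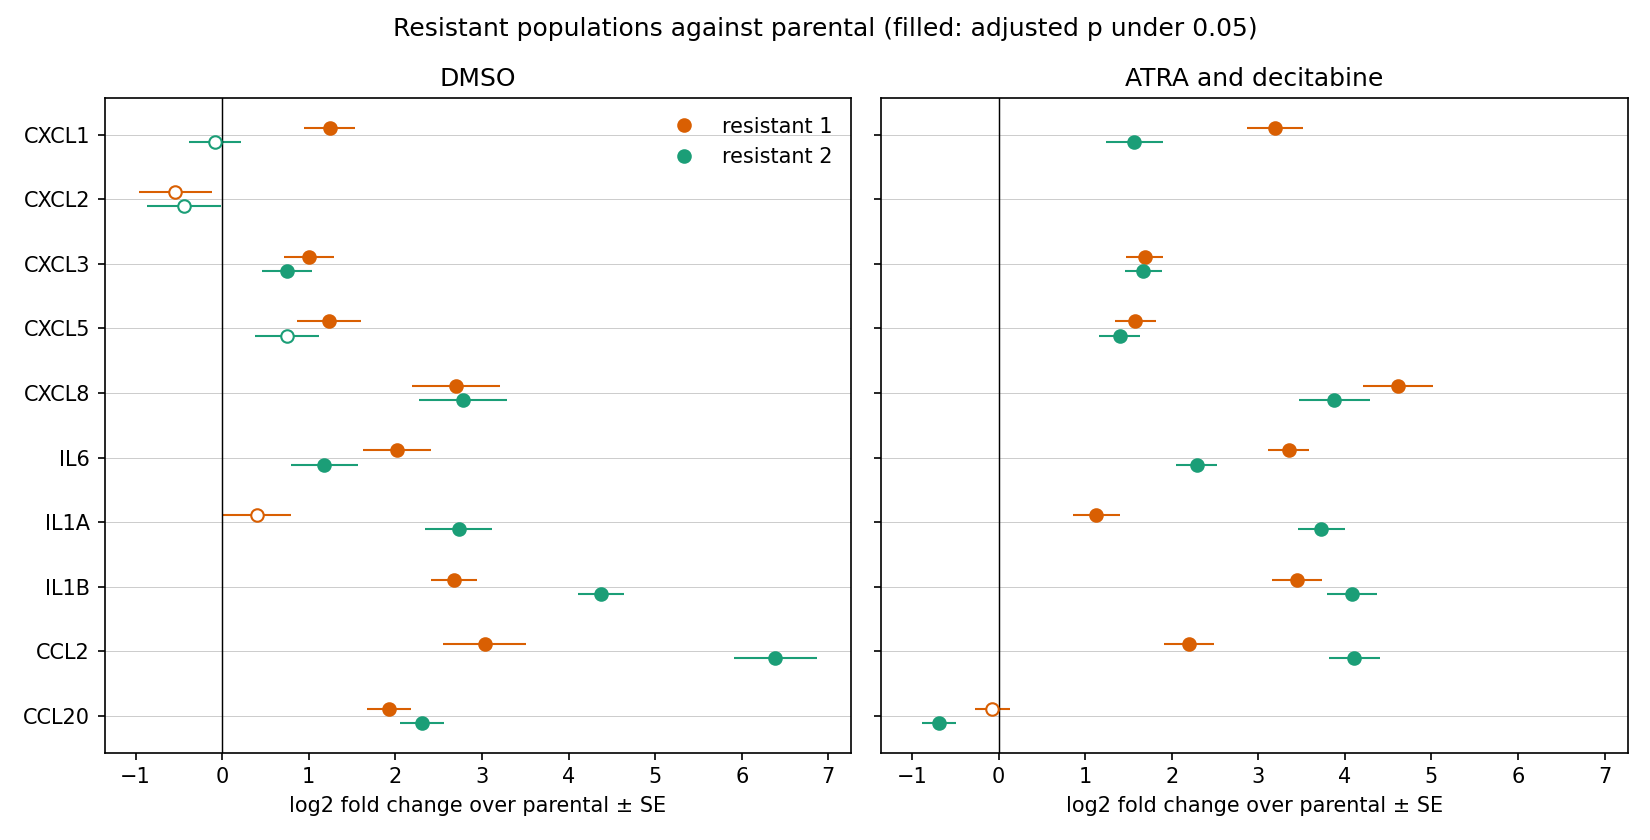
Log2 fold change of each resistant population over parental cells, with its SE from limma, with DMSO (left) and with ATRA and decitabine (right), for the 10 genes (y axis). Filled points passed an adjusted p of 0.05, and CXCL2 has no tested value with treatment. All filled points lie to the right of 0 except CCL20 in treated resistant 2.

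The next question was how each population responded to ATRA and decitabine, tested on reads of all 18 libraries scaled together. In parental cells 6 of 9 genes fell and 2 rose, where 31.8% of 21334 genes fell and 33.4% rose. In resistant 1, 3 fell and 2 rose, where 11.1% and 15.7% did. In resistant 2, 5 fell and 1 rose, where 7.19% and 12.1% did. The median log2 response of the 9 was -1.39 for parental, -0.33 for resistant 1 and -0.84 for resistant 2 cells, against -0.01, 0 and 0 over all genes. Levels in the next 3 paragraphs are jointly scaled normalized counts.

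The neutrophil chemokines fell. CXCL1 went from 7109, 13759 and 16115 in parental cells with DMSO to 439.9, 1008 and 1004 with treatment, with no overlap. This 15.2-fold fall was the largest of the 9 (log2 -3.93 ± 0.358, adjusted p = 4.06e-08, limma). CXCL1 fell 4.01-fold in resistant 1 (adjusted p = 4.52e-04) and 4.95-fold in resistant 2 (adjusted p = 1.86e-04). CXCL5 fell 4.51-fold, 3.6-fold and 2.94-fold in parental, resistant 1 and resistant 2 cells (adjusted p = 3.38e-05, 7.63e-04 and 0.00414), and CXCL3 3.31-fold, 2.09-fold and 1.79-fold (adjusted p = 3.22e-05, 0.0086 and 0.0414). CXCL8 went from 33837, 111392 and 159714 to 5950, 16535 and 16216 in parental cells, a 7.23-fold fall (log2 -2.85 ± 0.528, adjusted p = 1.37e-04, or log2 -3.51 without parental DMSO library 1). In resistant 2 it fell 3.46-fold (adjusted p = 0.0231). In resistant 1 it went from 530952, 571509 and 505103 to 281197, 247955 and 292755 without overlap, which did not pass (log2 -0.97 ± 0.528, adjusted p = 0.196). Replicate numbers paired the libraries of resistant 1 and of resistant 2 across treatments, although the restoration had itself used DMSO libraries of the same number. With the replicate number as a block within each population, this fall of CXCL8 in resistant 1 passed (adjusted p = 4.49e-05, limma). The calls of CXCL3 and CXCL8 in resistant 2 were each lost when any of several single libraries was left out. For CXCL3 these were its DMSO library 1 or 2 and treated library 2 or 3 (adjusted p = 0.0702 to 0.202), and for CXCL8 the same 4 (adjusted p = 0.053 to 0.124). With the posterior lowered to 95%, CXCL2 fell in parental cells (log2 -3.49 ± 0.399, adjusted p = 6.44e-07, limma) and resistant 1 (-1.42 ± 0.399, adjusted p = 0.0133). Its log2 response in resistant 2, -1.09 ± 0.399, missed the threshold (adjusted p = 0.0682).

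The cytokines IL6 and IL1A fell in parental cells and did not pass in the resistant populations. IL6 went from 3895, 9234 and 9925 to 2209, 2991 and 2993 there (2.62-fold, adjusted p = 0.00291, limma), and had log2 responses of -0.09 ± 0.365 in resistant 1 and -0.31 ± 0.365 in resistant 2 (adjusted p = 0.901 and 0.644). IL1A fell 2.04-fold in parental cells (adjusted p = 0.0244), a call lost without parental DMSO library 2 or 3 or treated library 1 (adjusted p = 0.0773 to 0.124). IL1B went the other way. It went from 795.8, 812.8 and 1326 to 2088, 1972 and 3753 in resistant 1 (2.62-fold, adjusted p = 0.00327). In parental cells its groups did not overlap but the rise did not pass (log2 0.65 ± 0.316, adjusted p = 0.0796). With the block within each population IL1B passed in parental cells (adjusted p = 1.91e-05, limma) and in resistant 2 (log2 0.32, adjusted p = 0.0124). Pairing by number was less clear in parental cells.

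CCL20 rose in all 3 populations. Parental cells went from 167.0, 208.5 and 302.2 with DMSO to 2327, 3653 and 3568 with the drugs. Resistant 1 went from 750.1, 822.1 and 870.4 to 2417, 3260 and 2901, and resistant 2 from 1440, 1003 and 779.4 to 2004, 2111 and 1385. The rise was 14.2-fold in parental cells (log2 3.82 ± 0.243, adjusted p = 4.58e-10, limma), 3.49-fold in resistant 1 (adjusted p = 3.04e-05) and 1.73-fold in resistant 2 (adjusted p = 0.0289), the last with overlapping groups and lost without DMSO library 2 or 3 or treated library 1 or 2 of resistant 2 (adjusted p = 0.0821 to 0.12). CCL2 rose 2.14-fold in parental cells (adjusted p = 0.037), on 10 reads over its 3 DMSO libraries. That call was lost without DMSO library 1 (adjusted p = 0.237) or treated library 2 or 3 (adjusted p = 0.12 and 0.0952), and with edgeR (adjusted p = 0.181). CCL2 fell 2.45-fold in resistant 2 (adjusted p = 0.0482), a call lost without DMSO library 2 or 3 or treated library 1 or 2 (adjusted p = 0.0893 to 0.194).

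**Figure D4:**
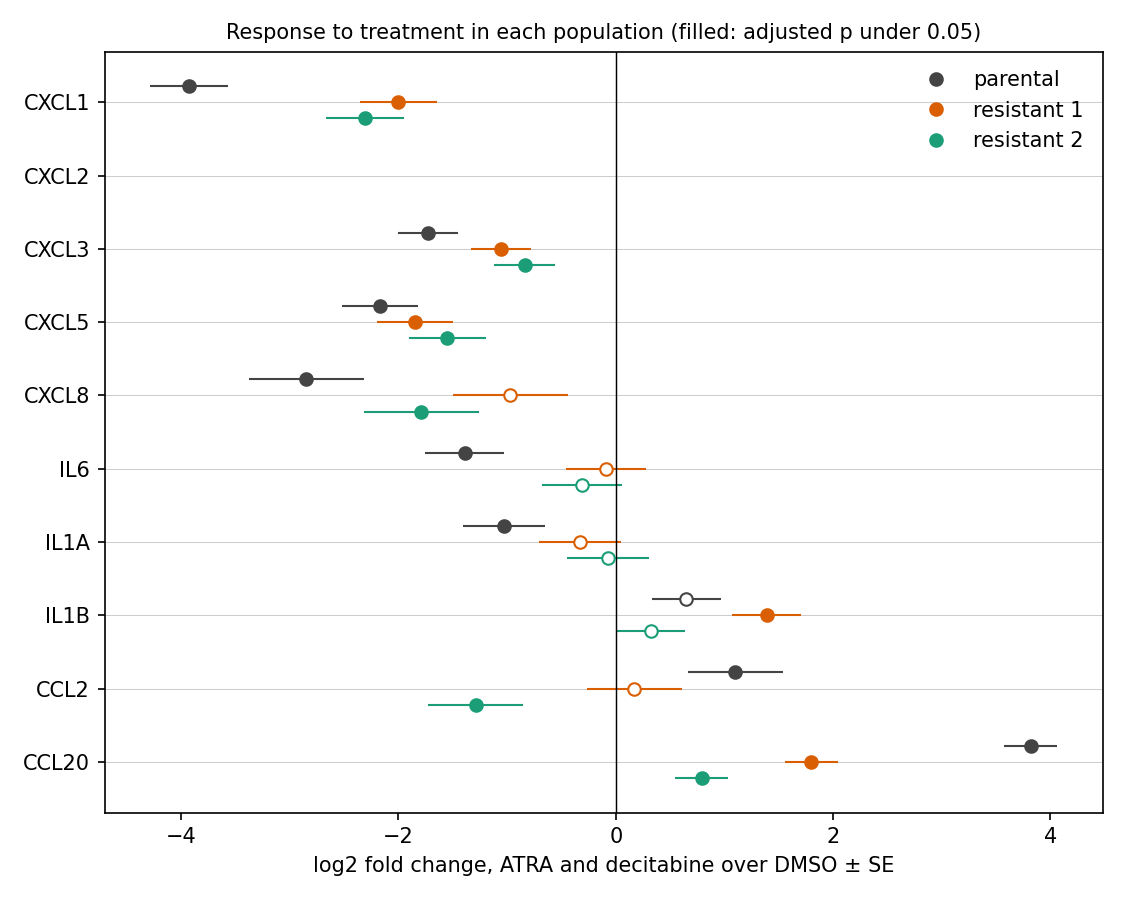
Log2 fold change of ATRA and decitabine over DMSO within each population, with its SE from limma, for the 9 genes with a tested value (CXCL2 has none). Filled points passed an adjusted p of 0.05. CXCL1, CXCL3 and CXCL5 lie left of 0 and CCL20 right of 0 in all 3 populations, with the parental point farthest from 0.

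The responses of the resistant populations were then set against that of parental cells in an interaction test. For resistant 1, 1 of 9 genes was higher and 1 lower, where 20.5% and 21.7% of all genes were. For resistant 2, 1 was higher and 2 lower, where 23.3% and 24.5% were. For CXCL1 the fall was smaller in resistant 1 (difference of log2 responses 1.92 ± 0.506, adjusted p = 0.00549, limma) and in resistant 2 (1.62 ± 0.506, adjusted p = 0.0139, or 0.058 without treated library 1 of resistant 2). CCL20 rose less too, by -2.02 ± 0.344 for resistant 1 (adjusted p = 1.64e-04) and by -3.03 ± 0.344 for resistant 2 (adjusted p = 1.92e-06). CCL2 differed in resistant 2 (-2.39 ± 0.621, adjusted p = 0.00426, or -1.67 with a pseudocount of 10), against those few parental reads. CXCL8 and IL6 in resistant 1 lay at the threshold (1.88 ± 0.746 and 1.30 ± 0.516, adjusted p = 0.0518 and 0.0514). They passed with edgeR (adjusted p = 0.0391 and 0.0467) and with DESeq2 (0.0257 and 0.0434), which gave 4 called genes. Of 21 alternatives, CXCL8 stayed uncalled in 13 and IL6 in 15. The shares of all genes called by edgeR and DESeq2 are not given here.

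The count of called differences depended on how the spread between libraries was treated. With the replicate number as a block within each population, 7 of 9 genes differed for resistant 1 and 9 of 9 for resistant 2. The share of all genes called under this block is not given here, so these counts cannot be read as particular to the 9. Pairing by number was less clear in parental cells (correlations of deviations 0.21, -0.005 and 0.144) than in the resistant populations. Parental library 1 was the lowest for 10 of 10 genes under both treatments. These are the genes under test, so their values cannot show that the pairing holds. The counts under the block thus rest on a pairing that was not clear in parental cells. With no block, leaving out parental DMSO library 1 gave counts of 4 and 6. For resistant 2 the count was 7 without its DMSO library 1, 5 without its treated library 3 and 2 without its treated library 1. Under the block, CXCL1, CXCL3, CXCL8, IL6 and IL1A all fell less in both resistant populations than in parental cells, CCL20 rose less in both, and IL1B differed in opposite directions (0.74 in resistant 1 and -0.33 in resistant 2, adjusted p = 2.71e-04 and 0.033).

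CXCL8, CXCL1, CXCL5, CXCL3 and CXCL2 lie in the CXC chemokine cluster of chromosome 4 (build GRCh38), from CXCL8 (chr4:73740506-73743716) to CXCL2 (chr4:74097035-74099293), and their neighbours did not all move with them. CXCL6, between CXCL8 and CXCL1, had 6.594 ± 6.056 normalized counts in parental cells and 33.03 ± 3.783 in resistant 1 with DMSO (SD, n = 3, log2 2.80, adjusted p = 0.0104, limma), and no read in treated resistant 2. PF4V1, a platelet factor gene next to CXCL6, had 50.20 ± 2.793 in parental cells and no read in any DMSO library of the resistant populations. EPGN, an EGF receptor ligand beyond CXCL2, rose in resistant 1 (log2 1.49, adjusted p = 6.29e-05) and fell with treatment in parental cells (log2 -1.52, adjusted p = 1.43e-05). AREG, another such ligand further along, rose with treatment in parental cells (log2 3.36, adjusted p = 1.41e-07, limma). There CXCL8, CXCL1, CXCL5 and CXCL3 fell, while PF4, between CXCL1 and CXCL5, rose (log2 1.03, adjusted p = 0.0175). EREG rose in resistant 1 (log2 4.12, adjusted p = 2.28e-06) and fell in resistant 2 (log2 -1.06, adjusted p = 0.0212).

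**Figure D5:**
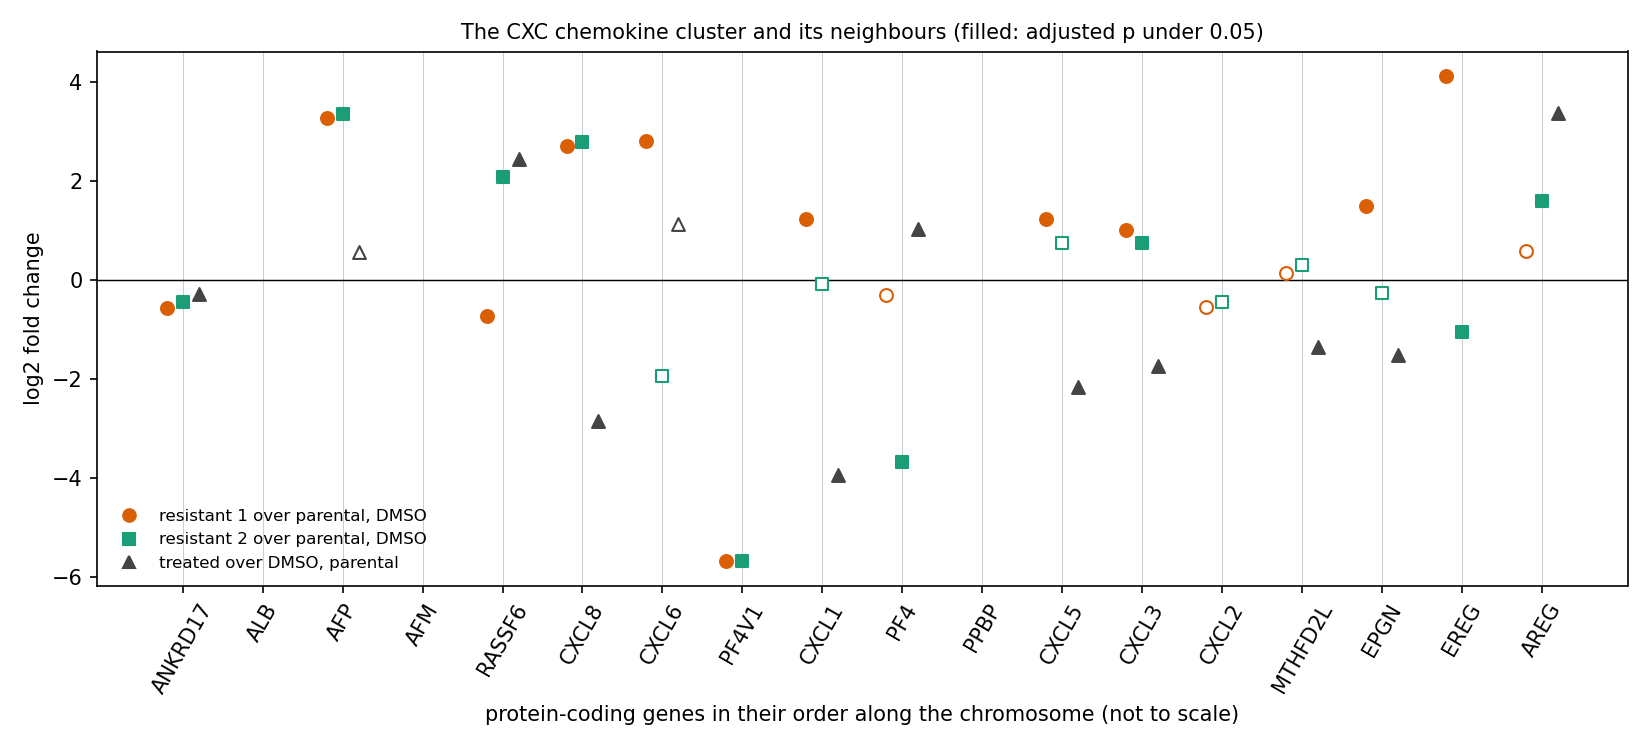
Log2 fold changes of the protein-coding genes within 500 kb of the 5 CXC chemokine genes, in their order along the chromosome (x axis, not to scale), for resistant 1 and resistant 2 over parental cells with DMSO and for treatment in parental cells. Filled symbols passed an adjusted p of 0.05. The treated parental cells have lower CXCL8, CXCL1, CXCL5 and CXCL3 but higher RASSF6, PF4 and AREG.

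Of 15 other chemokines, 7 were tested, and with DMSO 3 rose in resistant 1 and 2 rose and 2 fell in resistant 2. Over all genes 29.3% rose and 26.6% fell in resistant 1, and 32.1% and 29.8% in resistant 2. CCL5, an attractant of T cells, went from 1.942 ± 1.683 to 44.69 ± 26.65 normalized counts in resistant 1 (SD, n = 3), and CXCL16, a membrane-bound chemokine, from 3017 ± 130.4 to 8964 ± 273.0 in resistant 2. With treatment 6 of the 7 rose in parental cells and none fell, among them CCL26 from 22.12 ± 4.169 to 594.0 ± 39.89 jointly scaled counts (log2 4.70, adjusted p = 1.64e-09, limma). The median response of the 7 was log2 1.28, against -0.01 over all genes, of which 33.4% rose and 31.8% fell.

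Of 16 other cytokines, 13 were tested with DMSO, and 6 rose and 3 fell in resistant 1 while 7 rose and 2 fell in resistant 2. For these and the receptors below, 29.3% of all genes rose and 26.6% fell in resistant 1. In resistant 2 these shares were 32.1% and 29.8%. IL24 went from 0.9846 ± 1.705 normalized counts to 254.5 ± 68.14 in resistant 1 and 83.85 ± 36.49 in resistant 2. OSM, an IL-6 family cytokine, went the other way, from 292.0 ± 125.5 to 4.531 ± 2.576 and 6.338 ± 2.737 (adjusted p = 1.48e-06 and 1.92e-06, limma). Of 12 receptors of the 10, 6 passed the filter on low values, and 2 rose and 1 fell in resistant 1 and 3 rose and 2 fell in resistant 2. IL6ST, the signalling chain for IL-6, rose from 15478 ± 2085 to 22547 ± 1351 normalized counts in resistant 1, and to 45483 ± 801.9 in resistant 2. CXCR2, the receptor of the GRO chemokines, rose with treatment in parental cells from 3.870 ± 2.506 to 215.3 ± 53.07 jointly scaled counts.

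Of 20 genes of the NF-kB pathway tested with DMSO, 6 rose and 3 fell in resistant 1, where 29.3% of all genes rose and 26.6% fell. In resistant 2, 9 rose and 2 fell, where 32.1% and 29.8% did. The list medians were log2 0.01 and 0.24, against 0.01 and 0.02 over all genes. RELB, a subunit of the non-canonical pathway, rose by log2 1.65 in both (adjusted p = 0.00175 and 0.00144, limma). TNFAIP3, the inhibitor also called A20, rose by 1.56 and 1.67. NFKBIA, the inhibitor IkB alpha, fell in resistant 1 (log2 -1.40) and rose in resistant 2 (log2 0.50). Of 13 tested targets of NF-kB outside the 10 genes, 7 rose and 1 fell in resistant 1 and 8 rose and 1 fell in resistant 2. BIRC3 and SOD2 rose by log2 2.34 and 1.73 in resistant 1, and PTGS2, PLAU and ICAM1 by 3.67, 2.19 and 2.10 in resistant 2. TNFAIP2 fell in resistant 1, from 41997 ± 4451 to 2294 ± 202.3 normalized counts.

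With treatment of parental cells the same targets and the CXC chemokines did not move alike. Of 12 tested targets outside the 10 genes, 8 rose and 2 fell, with a median response of log2 1.04. Over all genes 33.4% rose and 31.8% fell. ICAM1, an adhesion receptor for leukocytes, went from 322.6 ± 45.22 to 5104 ± 205.9 jointly scaled counts (log2 3.99, adjusted p = 7.30e-10, limma), and SDC4 and BIRC3 rose by log2 1.72 and 1.50. Of 19 pathway genes 5 rose and 5 fell, both under the shares of all genes. Of 12 C/EBP and AP-1 factors 6 rose and 3 fell, with FOSB at log2 4.5 and JUN at 1.75.

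Of 10 genes that control decay of cytokine mRNA, 2 rose and 7 fell in resistant 1 with DMSO, and 3 rose and 4 fell in resistant 2. For this and the lists below, 29.3% of all genes rose and 26.6% fell in resistant 1. In resistant 2 these shares were 32.1% and 29.8%. HNRNPD, which encodes the AU-rich element binding protein AUF1, fell from 42247 ± 3602 normalized counts to 17768 ± 809.9 with resistant 1, and to 14133 ± 1409 with resistant 2. ZFP36L1, a decay factor that binds the same elements, rose by log2 1.92 in resistant 2 (adjusted p = 1.29e-07, limma). Of 11 tested genes of IL-1 processing and release, 5 rose and 2 fell in resistant 1 and 6 rose and 2 fell in resistant 2. CASP1, the protease that cleaves pro-IL-1 beta, went from 20.95 ± 7.345 to 637.8 ± 165.7 in resistant 2 (log2 4.89, adjusted p = 1.71e-07), and NLRP3 from 1.647 ± 1.063 to 114.6 ± 13.66 in resistant 1. Of 10 pattern sensors, 3 rose in each resistant population, near the share of all genes, and 2 fell in resistant 1 and 5 in resistant 2. TLR4, the receptor for lipopolysaccharide, had 6.664 ± 1.233 in parental cells against 1565 ± 230.0 for resistant 1 and 8033 ± 1075 for resistant 2. Of 7 genes of IL-6 signalling through STAT3, 2 rose and 1 fell in resistant 1 and 3 rose and 1 fell in resistant 2. SOCS3, a feedback inhibitor, fell in both (log2 -1.26 and -0.91).

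The markers of other cells that could make these signals were read beside the results. Epithelial keratins were high in every group, with KRT8 means of 78253 to 185678 normalized counts, while CDH1 (0.9145 to 1.378) was nearly absent with DMSO and reached 1403 in treated parental cells. The lymphocyte markers CD3E and MS4A1 had means of 0 to 1.086 with DMSO (CD3E had 25.10 in treated parental cells), and PTPRC, the common leukocyte gene, had a mean of 0.3608 with parental, 1.848 with resistant 1 and 15.94 with resistant 2 cells. Of the myeloid markers, LYZ had means of 7.654, 21.12 and 105.2 with DMSO in parental, resistant 1 and resistant 2 cells, the order of CCL2 and IL1B. CD14 had 312.4, 96.44 and 37.26, the reverse order, and made up most of the sum in parental cells. CD68 (4.999, 20.15 and 11.18), ITGAM (8.967, 21.50 and 4.594) and CSF1R (22.99, 42.90 and 1.744) followed neither order and were highest in resistant 1. The summed level of the 9 immune markers with DMSO lay between 210.0 and 433.2 for parental, 171.9 and 256.9 for resistant 1, and 138.6 and 220.8 for resistant 2 libraries. Of the 5 tested, 4 rose and 1 fell in resistant 1 and 1 rose and 3 fell in resistant 2. Over all genes 29.3% rose and 26.6% fell in resistant 1, and 32.1% and 29.8% in resistant 2. The 8 fibroblast markers summed to 8079 to 10045, 491.6 to 555.8 and 3554 to 4595. COL3A1 (means of 6475, 28.18 and 456.3) made up most of the parental sum. Of the 6 tested, 1 rose and 4 fell in resistant 1 and 3 rose and 2 fell in resistant 2. The 4 endothelial markers summed to 65.12 to 88.76, 170.0 to 262.2 and 53.30 to 69.49. KDR (68.13, 180.9 and 15.46) made up most of the parental sum. Of the 3 tested, 2 rose and none fell in resistant 1 and 2 rose and 1 fell in resistant 2. The part of these markers in the cytokine differences was not tested.

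Over the 6 group means, each gene was set beside 13253 protein-coding genes by the mean absolute difference of centred log2 levels. IL6 lay nearest GALC (0.09), CXCL3 nearest ANTXR1 (0.11), CCL20 nearest C7orf57 (0.16), IL1A nearest PLSCR4 (0.17) and CXCL5 nearest NAMPT (0.19). CCL2 lay nearest PAX7 (0.28), IL1B nearest MFGE8 (0.34), CXCL8 nearest KCTD16 (0.44) and CXCL1 nearest SPTLC3 (0.63), followed by CXCL5 (0.67).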

How the data were processed

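RNA was extracted with a column kit and made into stranded poly(A) libraries, per the labels' protocols. The submitters' processing notes name FastQC, MultiQC, STAR, featureCounts, DESeq2 and GRCh38/hg38, with no versions. The strand setting of the counting is not given in the sources used here. The authors deposited 1 table per treatment, whose values are a signal: gene counts divided by size factors. Of the DMSO values, 100% came out as whole reads (within 0.01 reads). The deposited table of treated cells lost its decimal points, so its scale is not a stated unit. Each gene was restored by the posterior over powers of 10 that give whole reads near its DMSO level, averaged with a model using the DMSO library of the same number. That model was added after the posteriors of the 10 genes had been seen, and 7 of the 9 tested reached the required posterior only with it. A posterior of 99% was required: 21090 of 25172 genes met it. Tested on DMSO values with the points removed, 11 of 18321 genes came out wrong. That test was guided by the restored treated levels, which had themselves been placed near the DMSO levels. It therefore cannot show that the treated points are right.

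Levels were compared within a table on log2(value + 1) with limma 3.58.1 in R 4.3.3, for genes with 10 or more normalized counts in 3 libraries. Responses used the reads of 18 libraries scaled together by TMM (edgeR 4.0.16). P-values were adjusted by Benjamini-Hochberg over all genes and called under 0.05. They measure the spread between labelled replicates, whose independence the labels do not detail. edgeR and DESeq2 1.42.0 on the reads, other filters, pseudocounts, scalings and posteriors, a replicate block and leaving out each library were alternatives. Replicate numbers paired libraries across treatments in resistant 1 (correlations of deviations 0.263, 0.157 and 0.422) and resistant 2 (0.44, 0.284 and 0.51). In parental cells the pairing was less clear (0.21, -0.005 and 0.144). The restoration of treated values had itself used the DMSO library of the same number, so these correlations are not fully independent of it. On simulated counts for resistant 1 against parental cells with DMSO, 77.2% of 57 4-fold changes and 47.9% of 73 2-fold changes were found among 21387 genes. Of the calls, 5.71% were false. Far fewer genes changed there than were called in the data, and the adjusted threshold depends on that share. These values therefore do not give the power in the data. The 10 genes and the lists were chosen with earlier results of these data known. All 10 are named, and from each other list up to 3 called genes per comparison with the largest change. Gene models are from GENCODE 29 and promoters from RefSeq.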

Additional observations from a re-analysis of the deposited data

Results flagged for a closer look

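The response to ATRA and decitabine differed between a resistant population and parental cells, by the interaction test across all genes (limma, Benjamini-Hochberg adjusted p), for 3 of the 9 genes tested, 2 in resistant 1 and 3 in resistant 2. Over all genes 20.5% were higher and 21.7% lower in resistant 1, and 23.3% and 24.5% in resistant 2, so the count of the 9 was not above that of all genes. For CXCL1 the log2 response in resistant 1 minus that in parental cells was 1.92 (adjusted p = 0.00549), and in resistant 2 minus parental it was 1.62 (adjusted p = 0.0139). For CCL20 the differences were -2.02 with resistant 1 and -3.03 with resistant 2 (adjusted p = 1.64e-04 and 1.92e-06). For CCL2 the difference was -2.39 in resistant 2 (adjusted p = 0.00426), with 10 reads in all in the parental DMSO libraries. Both resistant populations were set against the same parental libraries.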

How the results depend on the processing

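Over 102 gene results and 1640 alternative values, 1533 kept their direction and side of the threshold, 41 lost a call, 43 gained one and 23 changed sign, all 23 when 1 library was left out and all on values that did not pass. With the stricter posterior tried, only 4 of the 10 genes could be tested, and the counts called were 3 and 4 for treated resistant 1 and resistant 2 against parental cells, 1 between them, 3 for the responses of parental and of resistant 2 cells, and 1 for each difference of responses. For the difference in resistant 1, 4 genes were called with a pseudocount of 10, with edgeR and with DESeq2, and 5 with a posterior of 95%. With the replicate block within each population, added after seeing the data, 7 and 9 differences were called for resistant 1 and resistant 2. The share of all genes called under that block is not given here. The plain replicate block changed 1 call, CXCL3 in resistant 2 with DMSO (log2 0.75, adjusted p = 0.0682), for a count of 6. Same-numbered libraries of different populations had correlations over 0.1 in 2 of 9 pairs with DMSO and 4 of 9 with treatment. Between resistant 1 and resistant 2 these were 0.085, 0.264 and 0.376 with DMSO, and 0.097, 0.105 and 0.235 with treatment. Their different-numbered libraries ran from -0.316 to 0.113 and from -0.278 to 0.185. Between parental and resistant cells, same-numbered libraries ran from -0.28 to -0.05 with DMSO and from -0.101 to 0.15 with treatment. Same-numbered libraries thus went together weakly between the resistant populations.

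Leaving out 1 library at a time gave 2 to 4 called differences for resistant 1 and 2 to 7 for resistant 2, and 2 to 4 called responses in resistant 2. The log2 values that changed sign ranged as follows. With DMSO, CXCL1 in resistant 2 against parental ran from -0.44 to 0.15 and CXCL2 from -0.81 to 0.02. Between the resistant populations with DMSO, CXCL2 ran from -0.56 to 0.24, CXCL3 from -0.06 to 0.56 and CXCL8 from -0.49 to 0.34. With treatment, CCL20 in resistant 1 against parental ran from -0.28 to 0.05, and between the resistant populations CXCL3 ran from -0.16 to 0.21 and CXCL5 from -0.09 to 0.52. The response of resistant 1 ran from -0.28 to 0.05 for IL6 and from -0.03 to 0.37 for CCL2. The response of resistant 2 ran from -0.65 to 0.04 for IL6, -0.45 to 0.37 for IL1A and -0.08 to 0.62 for IL1B. Apart from the fewer genes tested at the stricter posterior, the cause of these changes was not tested. CCL2 had 1 to 5 reads per parental DMSO library, so its values there carry a large counting error.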
